A study of Mus musculus with 39 samples.

Results

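The major urinary proteins (Mups) were followed in epididymal adipose tissue, the fat pad of the mouse testis, on 39 one-colour Agilent arrays. The members were the probes that the array annotation names Mup1, Mup2, Mup3, Mup4 or Mup5. These 5 genes had 9 probes, of 40628 probes with 29411 gene names on the array. A further 3 names of the same form, Mup6, Mup20 and Mup21, had 5 probes and are listed with them, which gives 14 probes in all. The members were chosen by name, with no measured value in the rule.

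The mice were C57BL/6J, and went from weaning onto their diets at 3 to 4 weeks of age. The low fat control group (LFC, 10% of calories from fat) had 11 arrays, of which 4 were from days 1, 6, 10 and 14 and the rest from weeks 0, 3, 6, 9, 12, 15 and 18 of feeding. The high fat high sucrose group (HFC, 60% of calories from fat) had 10, with no array at day 1. The groups HF5, HF20 and HF75 received the same diet as HFC together with KAL-1, a formulation of ethno-botanical origin, at 5, 20 or 75 µg, and had 6 arrays each at weeks 3 to 18. No group carried a transgene or a deletion. A group was of 30 animals, 5 of which were killed every 3 weeks. Each diet had a single array at a time point, so the time points stood in for replicates, and it is not stated whether the RNA was of 1 animal or of several pooled. A p-value here measures the spread between such arrays. In the study's methods weeks are counted from day 14, so that day 14 and week 0 are the same age.

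Mups are small secreted proteins of the lipocalin family, barrels that hold a lipid or an odorant in a central pocket. Mouse liver makes them in bulk, and they pass through blood into urine, where they bind male pheromones and release them slowly. Several are also made in glands of the face, Mup4 in nasal and lacrimal tissue and Mup5 in salivary and lacrimal glands, and Mup1 RNA is known from white fat. In liver their transcription follows growth hormone pulses through the receptor Ghr and the factor STAT5, and also androgens and glucocorticoids. The genes lie side by side in 1 cluster on chromosome 4, and many are near copies of each other.

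Because the copies are so alike, the probe letters decide which gene a value can be given to. The array holds 4 probes named Mup1, called Mup1-a to Mup1-d here, 2 named Mup5 (Mup5-a and Mup5-b) and 3 named Mup20 (Mup20-a to Mup20-c). Of the 14 probes 10 matched an accession in RefSeq (assembly GRCm38.p6), all on chromosome 4, and 2 of these carry another current name: Mup1-b matched Mup10 and Mup2 matched Mup19. Mup1-b and Mup2 share 57 of their 60 bases in 1 run, Mup1-b and Mup1-c share 43, and Mup1-c and Mup2 share 40. These 3 probes can bind each other's transcripts, so their values are those of a group of near copies and not of 1 gene. The 30 bases below lie in the run that all 3 share. The probe Mup20-b, made to a predicted gene, and the pseudogenes Mup-ps10 and Mup-ps14 are aligned to it, with capitals for bases that differ from it (9, 2 and 3 bases).

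Mup1-b, Mup1-c and Mup2: ctaggatacctcatcaagaatcaaagactt
Mup20-b: ctaggataActcatcaagaaGcTTTCTTtA
Mup-ps10: ctaggataActcatcaagaatcaaagTctt
Mup-ps14: ctaggatTActcatcaagaatcaaagTctt

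Mup1-a reads another part of the transcript, and its longest run in common with another of the 14 was 11 bases, with Mup1-d. Outside the 14, Mup1-a had 32 of 37 overlapping bases in common with the probes of the pseudogenes Mup-ps6 and Mup-ps8. Mup5-a starts at an ATG, in capitals, and reads into what follows it. Both are given whole, since the levels described next rest on them, with the first 30 bases of the probes for Mup4, Mup3 and Mup21.

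Mup1-a: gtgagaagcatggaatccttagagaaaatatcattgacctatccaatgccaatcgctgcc
Mup5-a: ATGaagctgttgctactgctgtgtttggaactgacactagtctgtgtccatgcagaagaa
Mup4: atcgatacagcattgggtgacaagttctgt
Mup3: ctctttgccatacacatggaaattctccat
Mup21: ggtcatggagaggcccttccaaatgcatta

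The stretch just upstream of the starts of Mup genes is given as well, and its part in the levels was not tested. RefSeq promoters (250 bases before the start to 50 after it, GRCm38.p6) were found for 14 Mup genes. The motif TATAA, the core of the TATA box, was in 13 of the 14 on the strand of the gene, against 17.5% of 32851 mouse promoters. On either strand the share of all promoters was 24.9%. TTCNNNGAA, the letters that STAT5 binds, was in 0 of the 14 and in 8.30% of all promoters, searched on both strands. That says only that these letters are not in this window. The 60 bases around TATAA, in capitals, are given for the genes of 5 probes, all on the minus strand of chromosome 4.

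Mup10, chr4:60582144-60582203: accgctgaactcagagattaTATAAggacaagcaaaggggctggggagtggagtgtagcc
Mup19, chr4:61782214-61782273: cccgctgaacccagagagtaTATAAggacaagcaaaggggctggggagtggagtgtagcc
Mup4, chr4:59960655-59960714: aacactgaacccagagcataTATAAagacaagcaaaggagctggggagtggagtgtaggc
Mup3, chr4:62087287-62087346: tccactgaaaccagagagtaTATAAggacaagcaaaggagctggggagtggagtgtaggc
Mup21, chr4:62150808-62150867: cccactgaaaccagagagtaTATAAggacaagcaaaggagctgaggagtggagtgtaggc

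Of these 60 bases Mup19 had 57 in common with Mup10, Mup3 had 53, and Mup4 and Mup21 had 52. With Mup3, Mup21 had 58 bases in common, Mup19 had 55 and Mup4 had 54.

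A level here is the log2 of the background-subtracted signal minus the 75th percentile of the same array on that scale, so a level of 0 is as bright as the spot at that percentile. A level compares arrays for 1 probe and does not rank 1 probe against another. The scanner software marks each spot as well above background or not. Mup2 and Mup4 were well above background on 39 of 39 arrays, Mup1-a and Mup1-b on 38, Mup1-c on 36 and Mup3 on 34. Among the rest, Mup20-b was on 29, Mup21 on 27, Mup5-a on 21 and Mup20-c on 12. Transcripts of the Mup1, Mup2 and Mup4 type were thus read in fat of every diet at nearly every time point.

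The other probes were dim. Mup6 was well above background on 5 arrays, Mup1-d and Mup20-a on 3 and Mup5-b on 2. Mup5-b was marked on the LFC week 3 and HFC week 12 arrays alone. Mup20-a, made to the gene of darcin (the Mup that female mice learn a male's scent by), was marked on HFC day 6, where its level was -3.24, on HFC day 10 at -4.78, and on LFC week 3. No Mup probe was saturated on any array. Another 17 probes with 15 other names are described as Mups, most of them pseudogenes, and were marked on 1 to 39 of 39 arrays. Of these, Mup-ps6 reached 0.80 and Mup-ps8 reached 0.73, both on HFC day 10.

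Before the levels, 6 arrays have to be set apart. On LFC week 3, 97.1% of spots were well above background and 16431 of 43803 were marked as outliers, and on HFC week 12 these were 94.5% and 10531. The other 37 arrays had 53.7% to 79.6% and 21 to 387. The median rank correlation of LFC week 3 with the other arrays was 0.694, while HFC week 12 had 0.938, within the 0.902 to 0.952 of the 37. Outlier spots took away the values of Mup1-a, Mup4, Mup20-c and Mup21 on HFC week 12, and of Mup5-b and Mup20-c on LFC week 3.

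The other 4 arrays are those of week 6 for LFC, HFC, HF5 and HF75, on which the markers go against the epididymal label. The summed level of 5 visceral depot markers was -3.62 to -2.10 on them and 0.46 to 4.34 on the remaining 33. Of these 5 genes, 1 to 4 an array were still well above background on the 4 arrays, and 4 or 5 on the 33. Upk3b, a gene of the mesothelium that covers visceral fat, was -8.24 to -7.37 and well above background on 0 of 4, and on the 33 it was -4.03 to 1.73 and well above background on 33. Msln, also of the mesothelium, was -4.26 to -3.01 against -1.63 to 3.95. The summed level of 4 subcutaneous depot markers was -0.77 to -0.15 on the 4 arrays and -6.31 to -2.88 on the 33. Tbx15, a factor of subcutaneous fat, was -1.46 to -0.52 against -9.27 to -4.71. The HF20 array of week 6 was not among them. Adipocyte markers were well above background on all 39 arrays (11 of 11 genes).

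**Figure D1:**
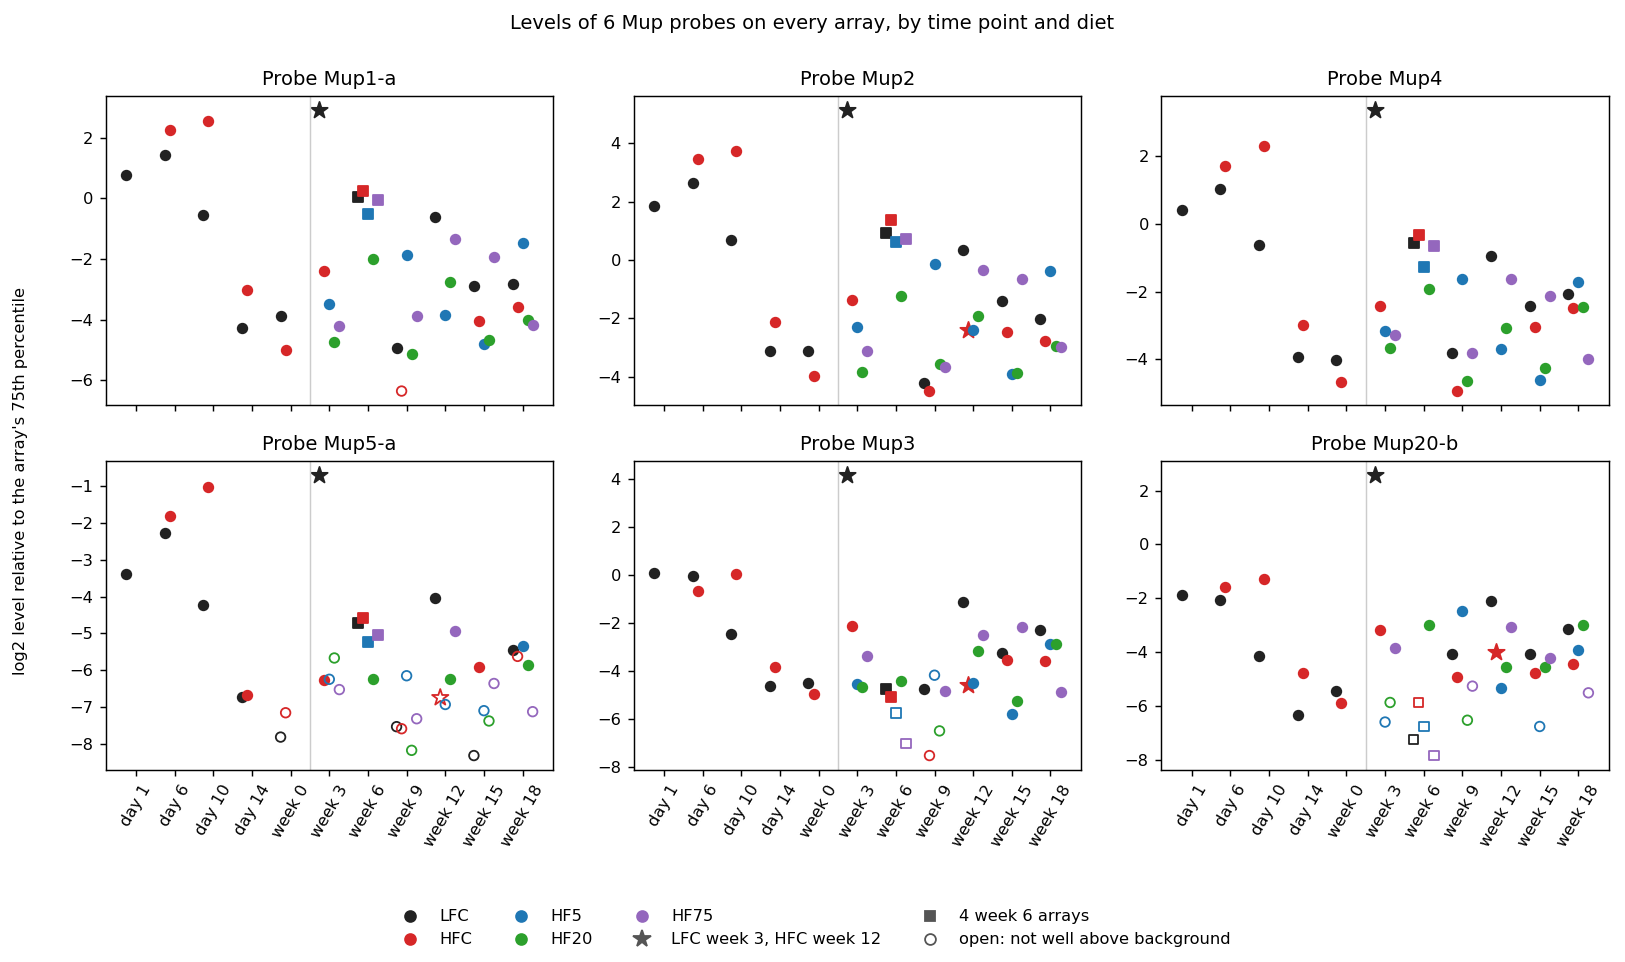
Levels of 6 Mup probes (log2, relative to the array's 75th percentile) on every array, by time point and coloured by diet. Open symbols are not well above background, stars are LFC week 3 and HFC week 12, squares are the 4 week 6 arrays with low visceral markers. Days 1 to 10 lie above day 14 and week 0 for every probe, for example 0.67 to 3.73 against -3.97 to -2.14 for Mup2. LFC day 10 lies below LFC week 12 for Mup3 (-2.47 and -1.13), Mup5-a (-4.24 and -4.03) and Mup20-b (-4.14 and -2.09). At week 6 the squares are high for Mup1-a, Mup2 and Mup4 and low for Mup3 and Mup20-b.

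The Mups of the Mup1 and Mup2 type are the main liver and urine forms. Once the 6 arrays set apart are left out, they were mostly highest in the first days of the diet. For Mup1-b, however, LFC day 10 (-0.14) lay below LFC week 12 (0.27). With the 6 arrays included, Mup2 was highest on LFC week 3. On the week 6 arrays of LFC, HFC and HF75 Mup2 exceeded LFC day 10. Mup2 was 1.83 at day 1 and 2.63 at day 6 in LFC, 3.45 at day 6 in HFC, and at day 10 it was 0.67 in LFC and 3.73 in HFC. At day 14 it was -3.13 in LFC and -2.14 in HFC, and at week 0 it was -3.12 and -3.97. The 5 arrays of days 1 to 10 were all above the 4 arrays of day 14 and week 0, with no overlap. Day 14 was scanned in a later period, with days 1 to 10, and week 0 in an earlier one with weeks 3 to 18. Each of these days had a scan date of its own, so day and scan date cannot be told apart.

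Mup1-a, which shares no long run with the Mup2 probe, followed it. Probes were compared with each other and not with transcripts, so whether these probes read different genes was not tested. Mup1-a was 0.78, 1.45 and -0.56 at days 1, 6 and 10 in LFC and 2.24 and 2.57 at days 6 and 10 in HFC. By day 14 it was -4.28 in LFC and -3.02 in HFC, and at week 0 it was -3.89 and -5.01. As with Mup2, the 5 early values did not overlap the 4 that came after.

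The probe Mup4, named for the nasal and lacrimal form, did the same. The levels at days 1, 6 and 10 were 0.42, 1.04 and -0.63 in LFC, and at days 6 and 10 in HFC they were 1.72 and 2.32. At day 14 and week 0 it was -3.92 and -4.03 in LFC and -2.97 and -4.67 in HFC. Again no value of the second set reached the first.

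Which near copies the probe Mup5-a can bind was not tested, so its values cannot be given to the salivary and lacrimal form alone. Mup5-a was -3.40, -2.27 and -4.24 at days 1, 6 and 10 in LFC and -1.80 and -1.003 at days 6 and 10 in HFC. Its day 14 levels were -6.74 and -6.68, and at week 0 it was not well above background in either diet. It was marked on 5 of 5 arrays of days 1 to 10, and later on 2 of 5 at week 3 and 5 of 5 at week 6. At week 9 it was marked on 0 of 5 and at week 12 on 3 of 5. At week 15 it was marked on 1 of 5 and at week 18 on 3 of 5. Mup5-b, the other probe of this gene, did not share the early levels. It was well above background on 0 of 5 arrays of days 1 to 10. Its levels there, -8.85 to -6.66, overlapped the -9.06 to -6.85 of day 14 and week 0.

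Mup3 was 0.09, -0.03 and -2.47 at days 1, 6 and 10 in LFC and -0.65 and 0.05 at days 6 and 10 in HFC. At day 14 and week 0 it was -4.61 and -4.50 in LFC and -3.82 and -4.96 in HFC, which is below all 5 early values. Mup20-b was -4.14 to -1.30 over days 1 to 10 and -6.34 to -4.77 over day 14 and week 0. Mup21 was -4.40 to -2.97 and then -6.30 to -4.98. The sets did not overlap for 9 of the 9 Mup probes well above background on at least 19 of the 37 arrays, which are the 9 used in what follows. Mup5-a passed this filter with 20 of the 37, of which 5 were the arrays of days 1 to 10, where it was high. Of the Mup probes left out by the filter, Mup1-d, Mup5-b and Mup20-c overlapped, and Mup6 and Mup20-a did not. Of 27377 probes under the same filter with a value on every array of both sets, 4.01% had every array of days 1 to 10 above every array of day 14 and week 0, and 3.04% had them all below.

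From day 10 to day 14, within 1 diet and 1 scan period, the level was lower for 9 of 9 probes in both diets, against 53.4% of all probes under that filter in LFC and 46% in HFC. The difference, day 14 minus day 10, was -3.80 to -0.58 in LFC and -6.15 to -2.64 in HFC. A difference at least as low as the least of these was had by 17.2% of all probes in LFC and by 1.91% in HFC. These are differences between single arrays, with no test.

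Over weeks 3 to 18 the Mups were mostly low and uneven. Mup2 at week 3 was -1.36 in HFC, -2.31 in HF5, -3.83 in HF20 and -3.11 in HF75, and on the LFC array set apart it was 5.13, the highest of all 39. At week 9 it was -4.21 in LFC, -4.49 in HFC, -0.15 in HF5, -3.57 in HF20 and -3.67 in HF75. The HF5 array of week 9 was the dimmest of the 39, with a 75th percentile of 119 against a median of 705 over the 37. At week 12 it was 0.34 in LFC, -2.41 in HFC, -2.40 in HF5, -1.91 in HF20 and -0.33 in HF75, with LFC highest.

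At week 15 Mup2 was -1.41 in LFC, -2.45 in HFC, -3.92 in HF5, -3.86 in HF20 and -0.66 in HF75. At week 18 it was -2.01, -2.78, -0.39, -2.94 and -2.97 in the same order. The order of the diets was thus another at each of these weeks: HF75 was highest at week 15 and lowest at week 18, and HF5 was lowest at week 15 and highest at week 18. Over the 24 arrays of weeks 3 to 18 that are left without the 6 set apart, 26.1% of the squared deviations of Mup2 lay between time points and 11.1% between diets. For the 9 probes these shares were 17.3% to 45.2% between time points and 1.08% to 18.9% between diets. Time points and diets differ in number, and the arrays are spread unevenly over them. Both shares therefore overlap in part, and neither was set against the share that random values would give. They do not rank time against diet.

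The 4 week 6 arrays divided the family. On them Mup2 was 0.91 in LFC, 1.36 in HFC, 0.62 in HF5 and 0.70 in HF75, and on the HF20 array of the same week it was -1.24. Mup1-a was -0.53 to 0.24 on the 4 and -1.99 in HF20, and Mup4 was -1.27 to -0.32 and -1.92. Of the 28 arrays that remain without the 6 set apart and without days 1 to 10, none had Mup2 as high as the lowest of the 4.

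Mup3 went the other way, at -4.75 in LFC, -5.07 in HFC, -5.73 in HF5 and -7.01 in HF75, with 2 of the 4 well above background, and at -4.40 in HF20. Mup20-b was -7.85 to -5.88, well above background on 0 of 4, and -3.01 in HF20. Mup21 was -6.09 to -5.10 and well above background on 1 of 4. So on arrays with low visceral and high subcutaneous markers, the Mup1, Mup2 and Mup4 probes lay in the upper part of their own range and Mup3 and Mup20-b in the lower part. Week 6 was scanned on 2 dates, with LFC, HFC and HF5 on one and HF20 and HF75 on the other, so the 4 arrays do not share a date that HF20 lacks. The part of the dissected depot in these levels was not tested.

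**Figure D2:**
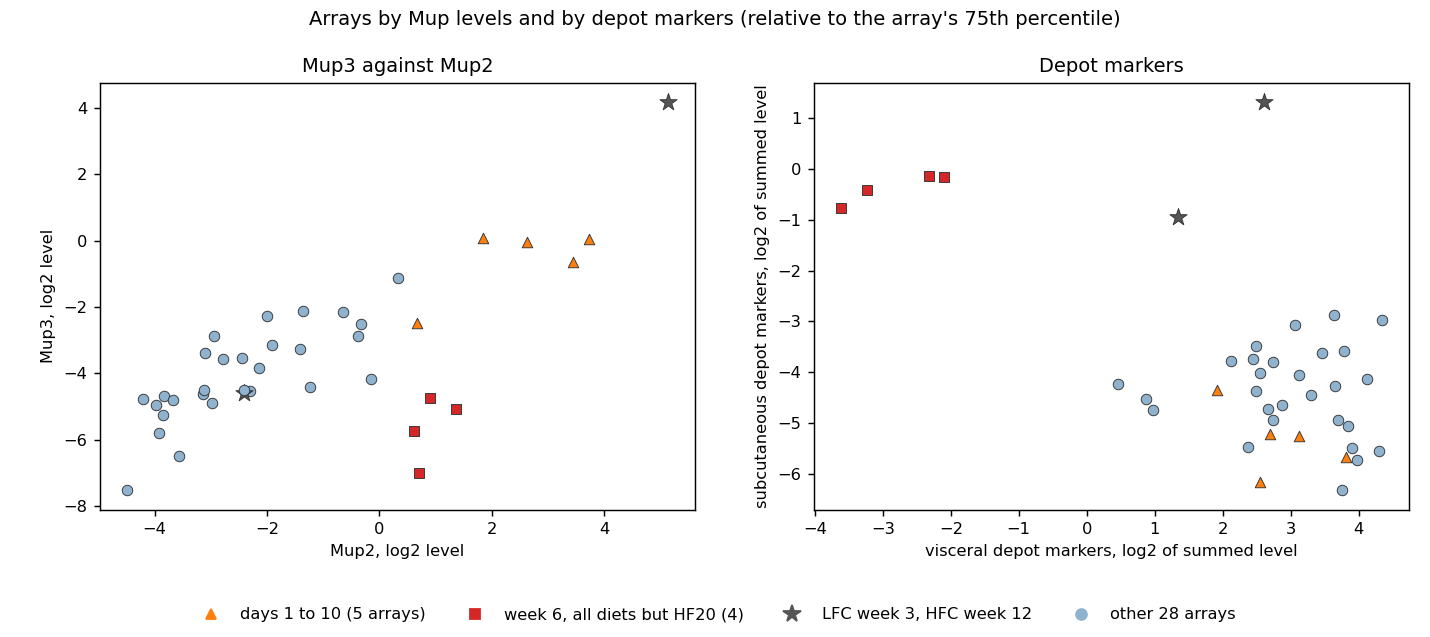
On the left, the level of Mup3 (log2) against that of Mup2 for each of 39 arrays, and on the right the log2 summed level of 4 subcutaneous markers against that of 5 visceral markers. The 4 week 6 arrays (red squares) have visceral markers of -3.62 to -2.10 and lie below the other arrays in Mup3 for their Mup2 level of 0.62 to 1.36.

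How the 9 probes varied together across arrays was described for the same division, which here depended on the 4 week 6 arrays. Over the 37 arrays, the Pearson r between any pair of Mup1-a, Mup1-b, Mup1-c, Mup2, Mup4 and Mup5-a was 0.88 to 1.00, and between any pair of Mup3, Mup20-b and Mup21 it was 0.69 to 0.86. Between these blocks r was 0.44 to 0.70. Without the 4 week 6 arrays, over 33, the values between blocks were 0.74 to 0.91. Within the first block they were 0.89 to 1.00 and within the second 0.69 to 0.86, so the second block no longer stood apart. Without the 5 arrays of days 1 to 10 as well, over 28, they were 0.55 to 0.85, against 0.62 to 1.00 within the first block and 0.53 to 0.80 within the second. Points share diets, time points and scan dates, and the probes of near copies share bases, so these values are a description.

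**Figure D3:**
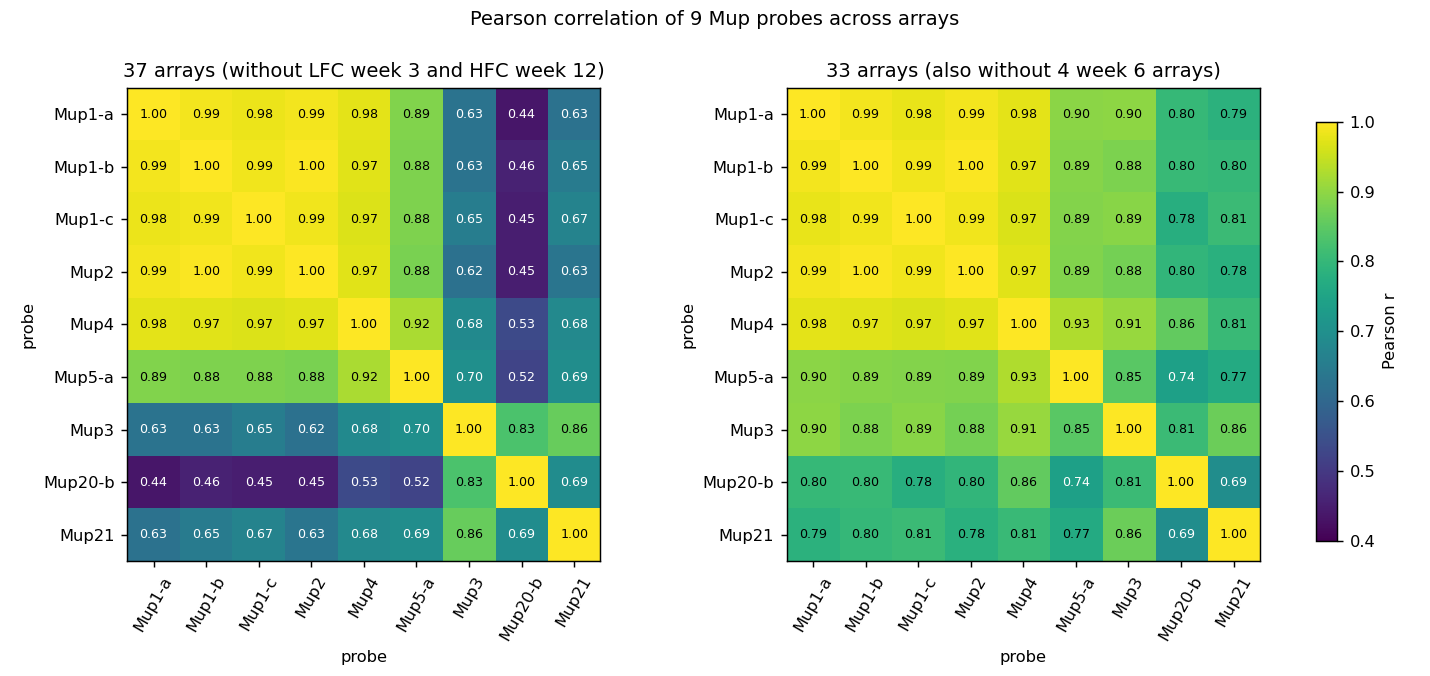
Pearson r between 9 Mup probes across 37 arrays (left) and across the 33 without the 4 week 6 arrays (right). The block of Mup3, Mup20-b and Mup21 against the rest, darker on the left, is at 0.44 to 0.70 there. On the right it is at 0.74 to 0.91, against 0.69 to 0.86 within Mup3, Mup20-b and Mup21.

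Of 27857 probes read on at least 19 of the 37 arrays, those of other names that varied most like the mean of the 9 Mup probes were found by Pearson r over the 37. The first was LOC635091 (r = 0.954), whose description names the predicted gene of Mup20-b. After it came Lrrc27 (0.784), a gene of leucine-rich repeats, H2-Q10 (0.784), a secreted class I histocompatibility protein of liver, Cox8b (0.770), a cytochrome oxidase subunit of muscle and brown fat, and Wdr51a (0.768). H2-Q10 was highest on LFC day 6, at 3.72, and Cox8b on LFC week 12, at 4.80. These are ranks over 37 arrays, with no test.

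The diet was then compared by limma with the time point as a block, over 10 time points. Of 29515 probes tested for HFC against LFC 0 passed the adjusted threshold of 0.05 (0%), with 907 at an unadjusted p under 0.05. None of the 9 Mup probes tested was among either. Mup2 was -4.49, -2.28 and 3.73 in HFC (lowest, median and highest). In LFC it was -4.21, 0.34 and 5.13 over all 11 arrays, of which day 1 has no HFC partner and was not fitted. Over the arrays fitted the mean was -1.11 in HFC and -0.42 in LFC, and the groups overlapped over nearly the whole range. The difference, HFC minus LFC, was -0.68 ± 0.71 (SE, adjusted limma p = 0.998), and HFC was the higher at 4 of 10 time points. Mup3 had the largest difference, -1.22 ± 0.68 (adjusted limma p = 0.998).

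The sign of most of these differences depended on the arrays set apart. The 9 differences were -1.22 to -0.16 with all arrays, with a median of -0.59 against 0.03 for all probes tested. Without the 6 arrays they were -0.30 to 0.95, with a median of 0.25, and the difference of Mup2 was 0.28 ± 0.47. At week 3, where LFC is the array set apart, HFC minus LFC was -6.79 to -5.32 over the 9 probes.

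Time point by time point, the difference between these diets took both signs. At day 10 HFC was higher for 9 of 9 probes, with differences of 1.18 to 3.68, and at day 6 and day 14 for 8 of 9. At week 0 it was higher for 1 of 9, and at week 6, on arrays set apart, for 8 of 9. At week 9 and week 18 HFC was lower for 9 of 9, with differences of -2.76 to -0.06 and of -1.30 to -0.02, and at week 15 it was higher for 2 of 9. Of all probes under the same filter, HFC was higher for 42.3% at day 6, 46.3% at day 10, 47.9% at day 14 and 52.3% at week 0. The same share was 48.6% at week 6, 52% at week 9, 52.5% at week 15 and 50.1% at week 18. At week 3 and week 12, where 1 of the 2 arrays is set apart, HFC was higher for 0 of 9 and 0 of 6 Mup probes, and for 62.8% and 44.8% of all probes. These are differences between 2 arrays each. Tested as a change of the HFC minus LFC difference from the early arrays (day 6 to week 0) to the late ones (weeks 3 to 18), the 9 values were -3.35 to -1.60, with a median of -2.71 against 0.15 for all probes. None passed the adjusted threshold, the smallest adjusted limma p being 0.831. Here 0 of 29515 probes passed (0%), with 1552 at an unadjusted p under 0.05, 5 of the 9 Mup probes among them. Liver markers had a median of -2.15 in this comparison (13 tested), and of -0.73 without the 6 arrays. Without the 6 arrays the Mup values were -2.32 to -0.38 and 3 had an unadjusted p under 0.05.

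Change with time was next tested within each diet, late arrays minus early ones. In LFC 145 of 30765 probes passed (0.471%), and 0 of the 9 Mup probes did, with differences of -0.23 to 0.97. Mup2 in LFC was -4.21, 0.34 and 5.13, and its difference was 0.02 ± 1.56 (adjusted limma p = 0.999). Without the 6 arrays the 9 differences were -1.60 to 0.63, with a median of -1.40, and the smallest adjusted limma p was 0.821. In HFC 0 of 29716 probes passed (0%), with 5092 at an unadjusted p under 0.05. The 10 Mup probes tested there were -2.63 to 0.73, with a median of -2.01 against 0.02 for all probes, and 0 were at an unadjusted p under 0.05.

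In HFC the early group itself was split. Mup2 was 3.45 and 3.73 at days 6 and 10 and -2.14 and -3.97 at day 14 and week 0, and its late arrays were -4.49 to 1.36. The difference was -2.29 ± 1.59 (adjusted limma p = 0.435), and for Mup3 it was -2.05 ± 1.16 (adjusted limma p = 0.360). The early group thus held both the highest HFC levels and levels as low as the late ones. Scan period runs with time point here, apart from week 0, and the 2 cannot be told apart.

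**Figure D4:**
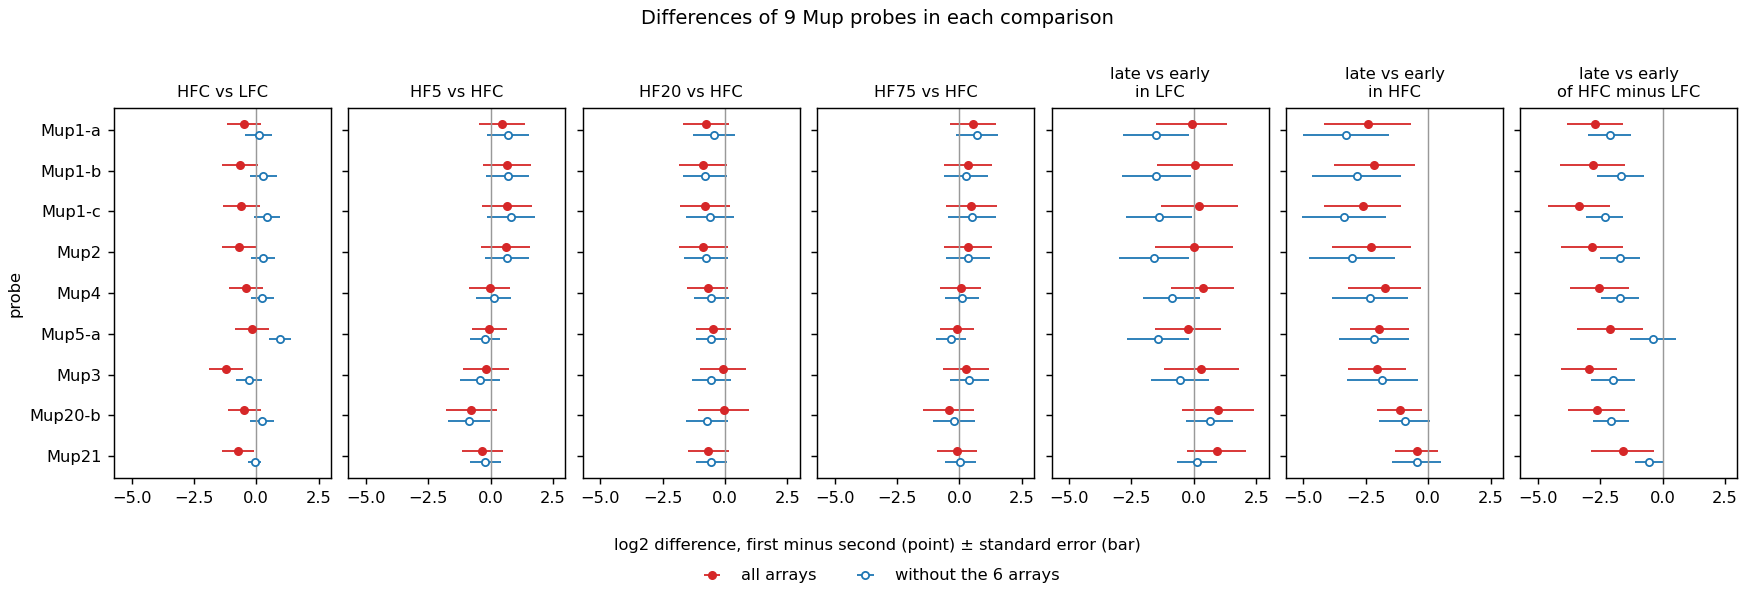
Differences of 9 Mup probes in 7 comparisons, on the log2 scale, with bars of 1 standard error, for all arrays (filled) and without the 6 arrays set apart (open). Values lie left of 0 for HFC minus LFC with all arrays (-1.22 to -0.16) and on both sides of 0 without the 6 (-0.30 to 0.95). No difference passed the adjusted threshold.

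KAL-1, at 3 doses, was compared with HFC over weeks 3 to 18, in 1 fit of 30 arrays. The groups overlapped for each Mup probe. Mup2 was -4.49, -2.43 and 1.36 in HFC, -3.92, -1.35 and 0.62 in HF5, -3.86, -3.26 and -1.24 in HF20 and -3.67, -1.81 and 0.70 in HF75. HF20 had the lowest median and no array above -1.24, but the highest values of the other groups were all from the week 6 arrays set apart, of which HF20 has none. Without the arrays set apart the highest level was -1.36 in HFC, below that of HF20, and -0.15 in HF5 and -0.33 in HF75. Its difference from HFC was -0.87 ± 0.97 (adjusted limma p = 0.819), and that of HF5 was 0.60 ± 0.97 and that of HF75 0.35 ± 0.97.

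Of 31839 probes tested 0 passed at any dose (0% for HF5, HF20, HF75 and for the mean of the doses), with 1103, 1585, 492 and 584 at an unadjusted p under 0.05. Over 10 Mup probes the differences were -0.77 to 0.66 for HF5, -1.25 to -0.05 for HF20, -0.58 to 0.53 for HF75 and -0.68 to 0.11 for the mean of the doses. All 10 were below 0 for HF20, although Mup3 (-0.07) was 0.65 with quantile normalisation and 0.23 with median scaling. The median for HF20 was -0.73, against -0.07 for all probes, and without the 6 arrays it was -0.58. The 3 doses share the HFC arrays, so their values stand side by side and are not compared.

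A single Mup probe reached an unadjusted p under 0.05, Mup20-c in HF20 (limma p = 0.034, adjusted 0.775). It was not well above background on any of the 6 arrays of HF20 or of HF5, and in HFC it was so on 3 of 6, one of which had no value left after outlier spots were removed. No fold is given for it.

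The growth hormone axis, which drives Mup transcription in liver, was read from a list of 10 genes. All 10 were tested in each comparison, and none passed the adjusted threshold. Ghr, the receptor, was 1.25 to 5.61 over the 37 arrays, and Igf1, the growth factor it induces, was 1.87 to 4.49, highest on LFC day 6. Socs2, a feedback inhibitor of the receptor, was -1.50 to 2.63. Across the 37 arrays r with the mean of the 9 Mup probes was 0.51 for Igf1, 0.38 for Ghr, -0.26 for Cish and -0.60 for Socs2. In HFC the late minus early difference of Socs2 was 1.80 ± 0.70 (adjusted limma p = 0.255) and Igf1 had a difference of -1.02 ± 0.48 (adjusted limma p = 0.300). Over the 10 genes the median of that difference was 0.35.

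Of 7 regulators of Mups in liver, 5 were tested in the diet and time comparisons and 7 in the dose comparisons, and 0 passed. Nr3c1, the glucocorticoid receptor, was 0.89 to 3.01 over the 37 arrays. Hnf4a, the factor that sets hepatocyte identity, was well above background on 17 of the 37. Of 8 male-biased genes of liver, 5 or 6 were tested and 0 passed. Elovl3, a fatty acid elongase of skin, liver and brown fat, was 1.99 on LFC week 12 and had an r of 0.66 with the Mup mean, and it was well above background on 9 of the 37 arrays. Hsd3b5 and Ugt2b1 were on 0.

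Liver markers were measured because Mups are among the most abundant RNAs of that organ. Over days 1 to 10 the number of 20 liver markers well above background was 12 to 15 an array, and over day 14 and week 0 it was 12 to 17. Their summed level was 2.36 to 5.18 and 1.18 to 5.01, which overlap. That sum was led by Cyp2e1, which was -0.21 to 5.79 over the 37 arrays. Ttr, a defining liver marker, was on 0 of 37, Apoa1 on 7 and Alb on 33. The highest Mup2 levels of the 37 were on HFC day 10 and HFC day 6. Of the 20 liver markers, 7 had their own highest level of the 37 on HFC day 6, among them Alb at 0.54 and Apoa1 at -4.26, and 1 had it on HFC day 10, Gc at -1.51. The share of all probes that were highest on these arrays was not counted. On HFC day 10 Alb was -2.95 and Apoa1 -8.74. Over days 1 to 10 Alb ran from -5.58 to 0.54, which overlaps the -6.25 to -2.72 of day 14 and week 0. Across the 37 arrays r with the Mup mean was 0.48 for Alb, 0.28 for Apoa1, 0.60 for Gc and 0.70 for Apoc3. The part of liver RNA in the Mup levels was not tested. In bulk tissue, fewer cells of a type and less RNA per cell cannot be told apart.

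Markers of exocrine glands, where Mup4 and Mup5 are made, were low apart from Amy1, an amylase gene, which was 0.80 to 5.83. Of the 8 genes 2 or 3 were well above background over days 1 to 10. Epididymis markers, from the duct that the fat pad lies on, varied most: Lcn5, a lipocalin of that duct, was -9.42 to 5.95 over the 37 arrays, 5.89 on HFC day 10 and -8.14 on HFC day 6, both of which had high Mup2. Its r with the Mup mean was 0.07.

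Of 14 other lipocalins, relatives of the Mups by fold, 10 were tested in each comparison and 0 passed, where 0.471% of all probes passed for late against early arrays in LFC and 0% in the others. Lcn2, which binds bacterial siderophores and is made by fat and neutrophils, was -5.35 to 2.30 over the 37 arrays and highest on HFC day 10, as Mup2 was. In HFC its late minus early difference was -3.24 ± 0.88 (adjusted limma p = 0.205), and its r with the Mup mean was 0.46. Rbp4, the retinol carrier of blood, was 1.48 to 6.35 with an r of 0.41. Adipoq, the adipocyte hormone, was 2.79 to 6.81 over the same arrays with an r of 0.32.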

How the data were processed

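RNA of epididymal adipose tissue was labelled with Cy3 and hybridised to 39 one-colour Agilent arrays. Per the file headers, the deposited intensity values came from Feature Extraction 10.5.1.1, where the processed signal is background-subtracted and detrended within the array (the submitters' processing notes name version 9.1, and the annotation is of mm9). The authors also deposited a table of log2 values for 28 arrays, each set against LFC at its own time, which was used as an alternative. Control spots and spots marked as outliers were left out, log2 of the processed signal minus the array's 75th percentile was taken, and spots of 1 probe were averaged. Probes that the software marked as well above background on 10 or more of 20 arrays (diet), 6 of 30 (dose), 5 of 11 (LFC) or 5 of 10 (HFC) were fitted with limma 3.58.1 in R 4.3.3, with Benjamini-Hochberg adjustment over all probes tested and a threshold of 0.05. The diet and dose fits had the time point as a block. The methods' comparison of replicate arrays at a time point was not possible with 1 array each. The series' design text speaks of 3 biological replicates, and the files used here hold 1 array per diet and time point. Precision is limited by the number of arrays. Named genes were the Mup probes, the members of fixed lists whose roles bear on Mups, and the 5 probes of other names with the highest Pearson r with the mean of 9 Mup probes. The members, lists and tests were chosen with earlier results of these data known. The fits of HFC against LFC, of HF75 against HFC and of late against early arrays within each diet were tested on simulated data. The simulated dose fit used a stricter filter than 6 of 30 arrays. The mean of the doses and the change in the HFC minus LFC difference were not simulated. The values of 1 listed gene are not reported here.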

Additional observations from a re-analysis of the deposited data

How the results depend on the processing

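No Mup probe passed the threshold under any of 171 alternatives. The smallest adjusted limma p of a Mup probe over all settings was 0.0622 for late against early arrays in HFC and 0.142 for HF20 against HFC, and 0.483 or more for the other comparisons. For the differences of Mup2 and Mup3, 164 alternatives kept the sign and 8 turned it. Mup2 in HFC minus LFC (-0.68) was 0.30 without LFC week 3 and HFC week 12 and 0.28 without the 6 arrays set apart. Mup3 in HF20 minus HFC (-0.07) was 0.65 with quantile normalisation and 0.23 with median scaling, and it was -0.38 to 0.42 when each time point was left out (0.42 without week 3, 0.26 without week 15). With week 0 alone as the early array, the late minus early difference in HFC was 1.94 for Mup2 and 0.56 for Mup3. In these cases the cause was not tested.

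Counts over all probes moved more. For late against early arrays in LFC (145) the count was 0 with normexp background correction, 78 with outlier spots kept, 78 when a probe had to be well above background on each array, 285 with array weights, 39 by the methods' t-test after adjustment, 0 with week 0 alone and 52 to 211 when each time point was left out (52 without day 6, 211 without week 3). In HFC (0) it was 1 with quantile normalisation, 4 with median scaling, 6976 with array weights, 1 with week 0 alone and 0 to 853 when each was left out, with 853 without week 0 and 1 without week 3. For the change in the HFC minus LFC difference (0) it was 2 without LFC week 3 and HFC week 12 and 3 with array weights, and for the mean of the KAL-1 doses (0) it was 0 to 1, with 1 without week 3. Leaving out the 4 week 6 arrays or all 6 was chosen after seeing the data. Slide and scan date could not be fitted as random blocks within LFC or HFC, since no arrays share one there.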
